A study of Mus musculus with 8 samples.

Results

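Genes of Notch signalling and of the first steps of the T lineage were examined in mouse thymus after spaceflight. The set was chosen by gene name and holds 10 genes, namely Notch1, Notch3, Hes1, Dtx1, Il2ra, Kit, Tcf7, Bcl11b, Gata3 and Hhex. Each gene was read from its single-gene probe set with the highest mean over the 8 arrays. This gave 9 measured genes of the 19938 genes on the array. No probe set was named Tcf7 in the platform annotation used here, so Tcf7 was not analysed here.

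The samples were thymus lobes of C57BL/6NTac mice, 8 weeks old, hybridised to Affymetrix arrays with 1 array per mouse. The 4 spaceflight mice spent 13 days aboard the shuttle. The 4 ground-control mice were matched to them for age and sex and stayed on the ground in animal enclosure modules, the housing that the flown mice also used. All 8 mice carried no stated genetic change or treatment, and no cell sort is stated, so RNA of thymocytes, epithelium, vessels and other cells was measured together. The comparison asks whether thymus gene expression differs after the flight.

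Notch receptors sit on the thymocyte surface and are bound by ligands on neighbouring cells, above all Dll4 on cortical thymic epithelium. Binding leads to cleavage of the receptor, and its intracellular part moves to the nucleus, where it joins the DNA-binding protein Rbpj and Mastermind coactivators and turns on genes such as Hes1 and Dtx1. In progenitors that enter the thymus this signal starts the T-cell programme, in which Tcf7, Gata3 and then Bcl11b are switched on while progenitor genes such as Kit and Hhex are switched off. The cells that pass through these steps are a small share of a thymus, whose bulk is made of later CD4+ CD8+ thymocytes. In such bulk RNA, fewer cells of a type and less RNA per cell cannot be told apart.

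The upstream sequences of Notch1, Il2ra and Bcl11b are shown because these 3 genes had the highest Pearson correlations with each other among the members over the 8 arrays, as described further on (by rank correlation, Hes1 and Kit were closer). Each is the 250 bases before the RefSeq gene start, in GRCm38.p6, written 5′ to 3′ on the gene's strand. They lie at chr2:26503823-26504072, strand -, at chr2:11642542-11642791, strand +, and at chr12:108003415-108003664, strand -. Capitals mark any match to 4 motifs, which were searched on both strands. The letters GTGGGAA stood for Rbpj, the protein through which cleaved Notch meets DNA. The letters TGTGGT were taken for Runx factors, which act beside Notch in thymocytes. For Tcf7 and Lef1, a pair of related factors of the T lineage, the search used TCAAAG. The Gata factors, of which Gata3 is the one of this lineage, were searched as AGATAA.

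Notch1: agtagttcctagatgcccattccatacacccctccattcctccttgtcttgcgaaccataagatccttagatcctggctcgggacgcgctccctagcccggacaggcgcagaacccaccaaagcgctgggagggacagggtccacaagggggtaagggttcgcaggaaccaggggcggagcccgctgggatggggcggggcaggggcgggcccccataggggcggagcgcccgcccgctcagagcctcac
Il2ra: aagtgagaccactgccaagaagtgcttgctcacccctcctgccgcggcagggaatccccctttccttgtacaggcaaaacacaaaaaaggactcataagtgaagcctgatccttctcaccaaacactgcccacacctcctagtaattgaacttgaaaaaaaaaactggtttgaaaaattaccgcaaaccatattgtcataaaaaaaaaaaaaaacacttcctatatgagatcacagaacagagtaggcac
Bcl11b: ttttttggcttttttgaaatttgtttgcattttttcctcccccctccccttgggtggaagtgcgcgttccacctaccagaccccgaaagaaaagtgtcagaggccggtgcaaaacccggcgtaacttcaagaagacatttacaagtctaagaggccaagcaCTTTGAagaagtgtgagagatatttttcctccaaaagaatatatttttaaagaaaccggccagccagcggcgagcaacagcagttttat

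The only match in these 3 sequences was the reverse complement of the Tcf7 and Lef1 motif, which begins 89 bases before the Bcl11b start. That motif was present in 13.8% of the 32851 promoter windows in the RefSeq table. The Rbpj motif was present in 5.42% of all windows and in 0 of the 11 windows that the table holds for 9 of the 10 listed genes, Tcf7 included. Hes1 is not among these 9, so its promoter was not searched. Such a match, or its absence from a window of this length, is a description of the letters and says nothing about binding.

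None of the 9 measured genes passed the test between spaceflight and ground control. By limma, 0 of 9 passed at a Benjamini-Hochberg adjusted p under 0.05 over all genes, where 0.0502% of all genes did (10 of 19938), 0.01% higher and 0.0401% lower. At an unadjusted p under 0.05 the count was also 0 of 9, where 10.1% of all genes were under it. In no member did the 4 spaceflight arrays all lie below or all lie above the 4 ground-control arrays, which was the case for 4.28% of all genes in the lower direction and 1.73% in the higher. The smallest limma adjusted p among the members was 0.558, for Hes1. All levels below are log2 expression values, and all differences are spaceflight minus ground control on that scale.

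**Figure D1:**
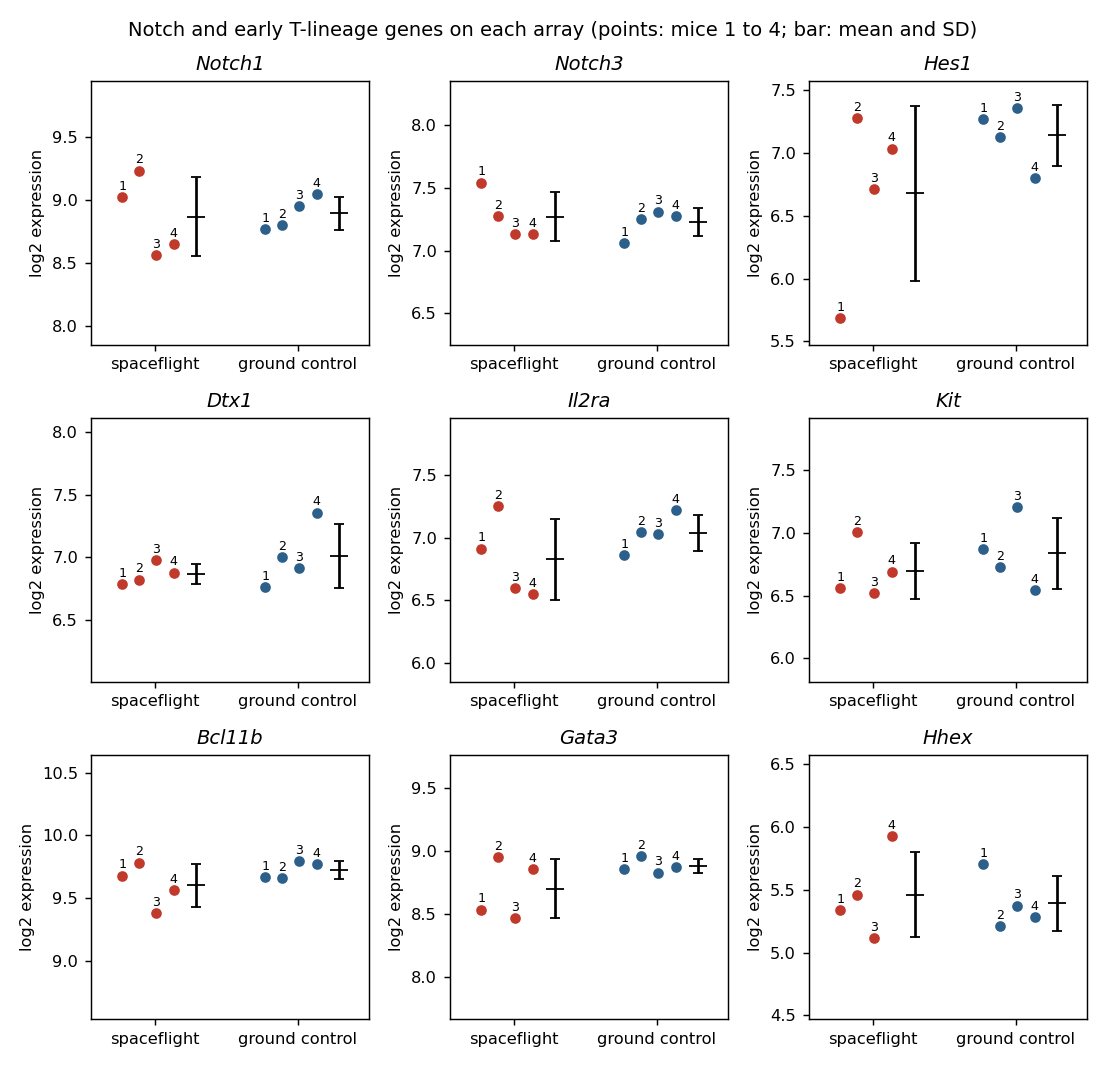
Log2 expression of the 9 measured genes on each array, spaceflight on the left and ground control on the right of each panel; points are single mice with their replicate numbers, and the bar beside them is the mean with SD (n = 4 each). Every panel spans the same number of log2 units, the groups overlap in all 9 panels, and spaceflight replicate 1 at 5.69 stands low for Hes1.

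The means of both receptors differed between the groups by less than the SD of either group. Notch1, the main Notch receptor of early thymocytes (probe set 10481056), had 9.02, 9.24, 8.56 and 8.65 in spaceflight replicates 1 to 4, against 8.77, 8.80, 8.96 and 9.05 in ground-control replicates 1 to 4. The spaceflight values lay on both sides of the controls, with replicate 2 above all of them and replicates 3 and 4 below all of them. Notch1 averaged 8.87 ± 0.32 in spaceflight and 8.89 ± 0.13 in ground control (SD, n = 4 each), a difference of -0.03 ± 0.16 (SE; limma adjusted p = 0.953). The 95% interval of this difference corresponded to a level between 0.773 and 1.25 times that of ground control.

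Notch3, a second receptor that thymocytes express (probe set 10449775), had 7.54, 7.28, 7.13 and 7.13 in spaceflight, against 7.06, 7.25, 7.31 and 7.27 in ground control. Spaceflight replicate 1 was above every control and the other 3 were within the control range. The difference was 0.05 ± 0.12 (limma adjusted p = 0.885), with a 95% interval from -0.22 to 0.31. Notch3 is also a receptor of pericytes and vascular smooth muscle, and its part from those cells was not tested.

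Hes1 had the largest difference of the 9 and also the widest spread. Hes1, a transcriptional repressor and direct Notch target (probe set 10434925), had 5.69, 7.28, 6.71 and 7.04 in spaceflight, against 7.27, 7.13, 7.36 and 6.80 in ground control. Replicates 1 and 3 of spaceflight lay below all controls, while replicates 2 and 4 lay among them. The mean was 6.68 ± 0.70 in spaceflight and 7.14 ± 0.24 in ground control (SD, n = 4 each), a difference of -0.46 ± 0.30 (SE; limma adjusted p = 0.558; exact two-sided permutation p = 0.257). The interval ran from 0.461 to 1.14 times the ground-control level. Without spaceflight replicate 1 the difference was -0.13, and without both spaceflight replicates 1 and 3 it was 0.02, so its size rested on those 2 arrays.

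Dtx1, which encodes the Notch-induced regulator Deltex (probe set 10533182), showed the opposite distribution of spread. It had 6.79, 6.82, 6.97 and 6.88 in spaceflight, against 6.76, 7.0, 6.92 and 7.36 in ground control. The 4 spaceflight values lay within the control range, and ground-control replicate 4 was the highest array. The difference was -0.14 ± 0.13 (limma adjusted p = 0.664), and leaving out single arrays it ran from -0.23 without ground-control replicate 1 to -0.03 without ground-control replicate 4.

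Il2ra and Kit are the surface markers by which early thymocyte stages are sorted. Il2ra, the CD25 chain of the interleukin-2 receptor (probe set 10469278), had 6.91, 7.25, 6.60 and 6.55 in spaceflight, against 6.86, 7.04, 7.03 and 7.22 in ground control. Spaceflight replicates 3 and 4 were below all controls and replicate 2 was above all of them. The difference was -0.21 ± 0.16 (limma adjusted p = 0.607), between 0.677 and 1.11 times the ground-control level at 95%. With single arrays left out it ran from -0.35 without spaceflight replicate 2 to -0.12 without spaceflight replicate 4. Regulatory T cells also carry Il2ra.

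Kit, the receptor for stem cell factor (probe set 10522530), had 6.56, 7.01, 6.52 and 6.69 in spaceflight, against 6.87, 6.72, 7.21 and 6.54 in ground control. The 2 sets of values were interleaved, with only spaceflight replicate 3 below the lowest control. The difference was -0.14 ± 0.16 (limma adjusted p = 0.727), and with single arrays left out it ran from -0.25 without spaceflight replicate 2 to -0.02 without ground-control replicate 3. Kit is made by mast cells too.

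The commitment factors Bcl11b and Gata3 had tight controls and a wider spread in spaceflight. Bcl11b, the zinc-finger factor that closes off other fates (probe set 10402554), had 9.68, 9.78, 9.38 and 9.56 in spaceflight, against 9.67, 9.66, 9.80 and 9.77 in ground control. Spaceflight replicates 3 and 4 were below the lowest control and the other 2 lay among the controls. The difference was -0.12 ± 0.11 (limma adjusted p = 0.657), and its interval, from 0.774 to 1.09 times ground control, was the narrowest of the 9. Single arrays moved the difference over a range from -0.18 without spaceflight replicate 2 to -0.05 without spaceflight replicate 3.

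Gata3, the T-lineage factor needed from the first intrathymic step (probe set 10479981), had 8.53, 8.95, 8.47 and 8.85 in spaceflight, against 8.86, 8.96, 8.83 and 8.87 in ground control. The controls spanned 0.13 and the spaceflight arrays 0.48, with replicates 1 and 3 below all controls. The difference was -0.18 ± 0.13 (limma adjusted p = 0.589), and it was 0.02 without those 2 arrays. Without single arrays it ran from -0.26 without spaceflight replicate 2 to -0.10 without spaceflight replicate 3.

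Hhex, a homeobox gene of progenitors that is shut off at commitment (probe set 10462818), was the dimmest member. It had 5.34, 5.46, 5.12 and 5.93 in spaceflight, against 5.70, 5.21, 5.37 and 5.28 in ground control. Its mean stood close to the level that 95% of olfactory and vomeronasal receptor genes did not exceed, 5.43, which serves here as a mark of background because these are receptors of smell. The values overlapped, with a difference of 0.07 ± 0.18 (limma adjusted p = 0.882). Without spaceflight replicates 1 and 3 it was 0.30 ± 0.18 (limma adjusted p = 0.815), and so dim a signal limits what can be measured.

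Over all probe sets, spaceflight replicates 1 and 3 were unlike the rest, with an interquartile range of 2.43 in both, against 2.68 to 2.95 in the others. Replicate 3 lay below all 4 controls in 7 of the 9 genes, and so did 55.8% of the 13202 genes brighter than the receptor background on that array. Replicate 1 was below all controls in 2 of the 9, where 52.1% of those genes were, and replicate 4 in 3 of the 9, where 27.4% were. Replicate 2 was below all controls in 0 of the 9, where 23.5% were. The SD was larger in spaceflight than in ground control for 7 of 9 members, against 74.6% of all genes, the exceptions being Dtx1 and Kit. The lower mean in 7 of 9 members stood beside 53.5% of all genes and 68.2% of the genes brighter than the background. Without replicates 1 and 3, 0 of 9 passed, adjusted or unadjusted (limma, smallest adjusted p = 0.815), where 0.0301% and 6.95% of all genes did. The mean was then lower in 4 of 9 members and in 52.8% of those genes, and the median difference over the members was 0.01 in place of -0.14. The median of the brighter genes was -0.09 with all arrays and -0.01 without these 2.

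**Figure D2:**
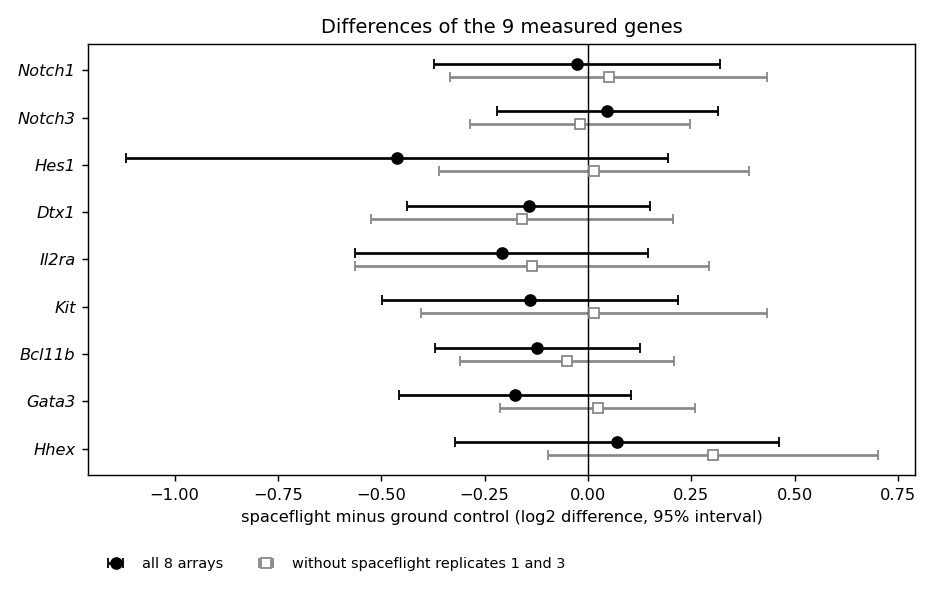
Spaceflight minus ground control for the 9 measured genes (log2 difference on the horizontal axis, bars are 95% limma intervals), with all 8 arrays (filled) and without spaceflight replicates 1 and 3 (open). Every interval includes 0 in both cases, and the Hes1 difference moves to 0.02 from -0.46 when those arrays are left out, while Hhex moves to 0.30.

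Within the set, Notch1, Il2ra and Bcl11b varied together from array to array. Pearson's r over 8 arrays was 0.883 for Notch1 and Il2ra (Spearman's rho 0.881; exact permutation p = 0.00389 and 0.00724), 0.855 for Notch1 and Bcl11b (rho 0.833; p = 0.00541 and 0.0154), and 0.851 for Il2ra and Bcl11b (rho 0.714; p = 0.00434 and 0.0576). With adjustment over the 36 pairs of members these did not pass (adjusted permutation p = 0.0649 for each r, and from 0.13 to 0.355 for rho). Without the 2 arrays farthest from the median of the first gene, r was 0.779, 0.814 and 0.706, and without spaceflight replicates 1 and 3 it was 0.889, 0.875 and 0.868. All 8 arrays enter each r, both groups pooled, and a group of 4 arrays holds too few for a value of its own. Among 13201 genes brighter than the background, 0.515% followed Notch1 at least as closely as Il2ra did. For Bcl11b the share was 0.932%.

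**Figure D3:**
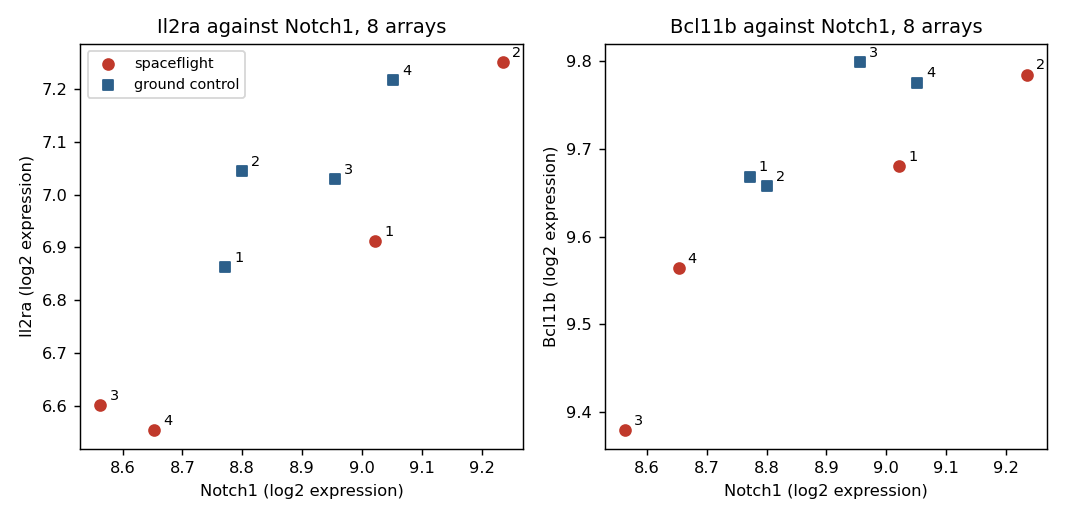
Il2ra (left) and Bcl11b (right) against Notch1, each as log2 expression, with a point per array, circles for spaceflight, squares for ground control and replicate numbers beside them. Both genes rise with Notch1 over the pooled arrays, with spaceflight replicates 3 and 4 at the low end and spaceflight replicate 2 at the high end of Notch1. The groups need not share a line. Spaceflight replicate 1 and ground-control replicate 4 are close in Notch1 (9.02 and 9.05). Il2ra is at 6.91 and 7.22 on these arrays, and Bcl11b at 9.68 and 9.77.

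Hes1 and Kit had a rho of 0.929 over the 8 arrays (exact permutation p = 0.00223, adjusted over 36 pairs 0.0804) and an r of 0.672 (p = 0.061, adjusted 0.437). Their r without spaceflight replicates 1 and 3, also the arrays farthest from the Hes1 median, was 0.917. For Hes1 and Gata3 the r of 0.726 (rho 0.452; exact permutation p = 0.0462 and 0.267, adjusted 0.415 and 0.642) rested on those 2 arrays, and was -0.01 without them. The genes whose pattern was most like the mean of the 9 standardized members, out of 13193 searched over 8 arrays, were Elf4 (r = 0.984), an Ets-family transcription factor, Eftud2 (r = 0.979), a spliceosome GTPase, and Rnps1 (r = 0.976), an RNA-binding protein of the exon junction complex. Their differences were -0.25, -0.23 and -0.18 (limma adjusted p = 0.541, 0.535 and 0.621), and another Elf4 probe set gave 0.08.

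Beyond the receptors and targets above, 41 of 43 other genes listed for the Notch pathway were measured, and 0 passed in either direction (limma, smallest adjusted p = 0.351). At an unadjusted p under 0.05, 1 was higher and 5 were lower, where 3.05% and 7% of all genes were. Among the 13202 genes brighter than the receptor background, 216 were higher and 1321 were lower at that level. The groups did not overlap for 2 of the 41 genes in the lower direction and for 1 in the higher. The shares of all genes were 4.28% and 1.73%. The median difference of the 41 was -0.11 with all arrays and -0.01 without spaceflight replicates 1 and 3.

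Among the ligands, Dll4 was the furthest below ground control. Dll4, the ligand on cortical epithelium, had 5.81, 5.87, 5.61 and 6.10 in spaceflight, against 6.33, 6.19, 6.19 and 6.55 in ground control. All spaceflight arrays lay below all controls. The difference was -0.47 ± 0.13, which did not pass over all genes (limma adjusted p = 0.351). Its exact two-sided permutation p was 0.0286, the smallest that 8 arrays allow, which every gene with groups apart reaches. Without spaceflight replicates 1 and 3 the difference was -0.33 (limma adjusted p = 0.709). The groups were then still apart, as they were for 1689 of the 19938 genes in this direction.

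Dll3, a ligand known mainly from embryonic segmentation, had 5.51, 5.27, 5.25 and 5.26 in spaceflight, against 5.17, 5.06, 5.08 and 4.93 in ground control. The groups did not overlap, with a difference of 0.26 ± 0.10 (limma adjusted p = 0.461), but its mean was below the receptor background. The ligands Jag1 (-0.29 ± 0.19), Jag2 (-0.13 ± 0.11) and Dll1 (0.04 ± 0.11) had overlapping groups. The receptors Notch2 and Notch4 differed by -0.08 ± 0.15 and -0.03 ± 0.13 (limma adjusted p = 0.83 and 0.937).

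Of the genes that modify and cleave the receptor or act on ligand uptake, 14 of 15 were measured, with a median difference of -0.11, and of -0.01 without spaceflight replicates 1 and 3. Poglut1, which adds glucose to the Notch extracellular part, had 7.45, 7.79, 7.33 and 7.97 in spaceflight, against 8.07, 8.11, 8.15 and 8.25 in ground control. All spaceflight arrays were below all controls, and the difference of -0.51 ± 0.15 did not pass (limma adjusted p = 0.351). It was -0.27 without spaceflight replicates 1 and 3 (limma adjusted p = 0.703). The convertase Furin (-0.28), the Fringe glycosyltransferase Mfng (-0.29) and the sheddase Adam17 (-0.16) had overlapping groups. Without those 2 arrays Furin was at -0.09, Mfng at -0.003 and Adam17 at -0.01.

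In the nuclear complex and its turnover, the measured genes (9 of 10) had a median of -0.08, which was 0.09 without spaceflight replicates 1 and 3. Rbpj, the DNA-binding partner of cleaved Notch, differed by -0.09 ± 0.12 (limma adjusted p = 0.763), while its other probe set gave 0.17. The corepressor Spen differed by -0.26 ± 0.12, the coactivators Maml3 by 0.29 ± 0.13 and Maml1 by -0.13 ± 0.16, and Fbxw7, the ubiquitin ligase subunit that marks cleaved Notch for degradation, by -0.08 ± 0.10, with another Fbxw7 probe set at 0.16. None passed (limma adjusted p from 0.495 to 0.763).

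The other targets and Deltex relatives had a median of -0.16 over 11 genes, 10 of them with a lower mean and 0 passing, where 53.5% of all genes and 68.2% of the brighter genes had a lower mean. Without spaceflight replicates 1 and 3, 6 of the 11 were lower and 5 higher, where 52.8% of the brighter genes were lower. Dtx4, a Deltex relative, had 6.24, 6.70, 6.47 and 6.63 in spaceflight, against 6.65, 6.97, 7.36 and 7.08 in ground control. The groups overlapped through spaceflight replicate 2 and ground-control replicate 1, with a difference of -0.50 ± 0.16 (limma adjusted p = 0.394). The repressors Hey1 (-0.45 ± 0.19) and Hey2 (-0.30 ± 0.14, with a mean below the receptor background), and Myc (-0.38 ± 0.17), the growth regulator that Notch induces in pre-T cells, also did not pass (limma adjusted p from 0.475 to 0.495). Spaceflight replicate 1 was the lowest of the 8 arrays for Dtx4, Hey1 and Myc. Without replicates 1 and 3 the Hey1 and Myc differences were -0.19 and -0.17, and the median of the 11 genes was -0.06. Among the 11, Ptcra, the pre-T-cell receptor chain and a Notch target, differed by -0.16 ± 0.13 (limma adjusted p = 0.612).

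**Figure D4:**
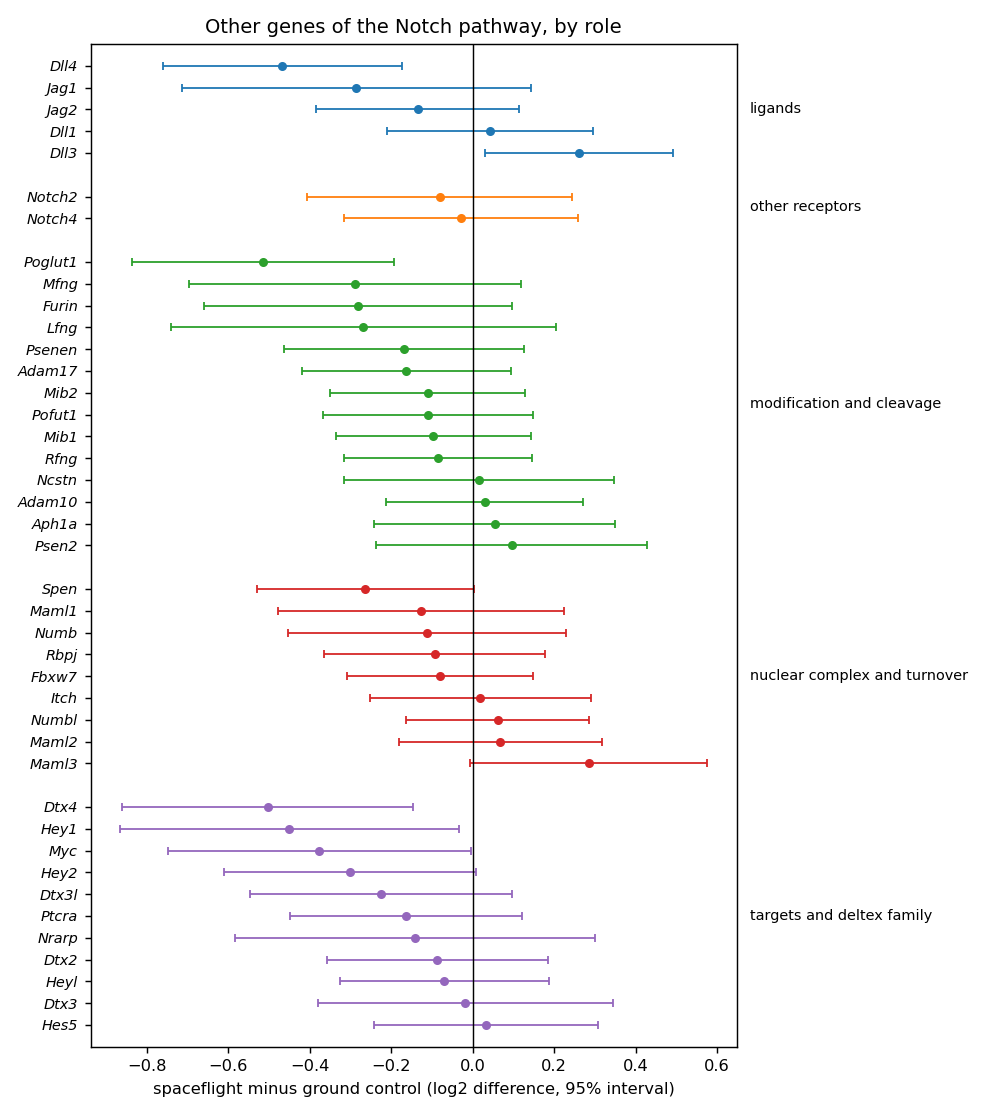
Spaceflight minus ground control for the 41 other measured genes of the Notch pathway, grouped by role (log2 difference on the horizontal axis, bars are 95% limma intervals, not adjusted for the number of genes). The lowest are Poglut1, Dtx4, Dll4 and Hey1, the highest are Maml3 and Dll3, and none passed adjustment over all genes.

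Genes that mark the stages around T-lineage entry gave the same count of 0. Of the regulators carried over from progenitors, 15 of 15 were measured with a median of -0.02 (0.04 without spaceflight replicates 1 and 3), the furthest by p being Lmo2 (-0.32 ± 0.15), Spi1 (-0.29 ± 0.15), Bcl11a (0.19 ± 0.10) and Meis1 (-0.32 ± 0.18), all transcriptional regulators of stem or progenitor cells. Of the partners of commitment, 13 of 13 were measured with a median of -0.12, which was -0.03 without spaceflight replicates 1 and 3 and -0.05 without ground-control replicate 4. They were led by Ets2 (-0.39 ± 0.14, groups not overlapping), Runx3 (-0.36 ± 0.16), Id2 (-0.33 ± 0.18) and Lef1 (-0.16 ± 0.11). Without spaceflight replicates 1 and 3 Ets2 was at -0.17 and Id2 at -0.03.

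Surface and pre-T-cell receptor genes of CD4- CD8- thymocytes had a median of -0.17 over 10 of 11 genes, and of 0.02 without spaceflight replicates 1 and 3. Cd44, an adhesion receptor of the earliest stages that many other cells share, had 6.07, 6.82, 6.32 and 6.48 in spaceflight, against 6.98, 7.05, 7.43 and 6.81 in ground control. Only spaceflight replicate 2 and ground-control replicate 4 met, and the difference of -0.65 ± 0.18 did not pass (limma adjusted p = 0.343). It was -0.42 without spaceflight replicates 1 and 3 (limma adjusted p = 0.71). The adhesion molecule Cd2 (-0.30 ± 0.12, groups not overlapping), the interleukin-7 receptor gene Il7r (0.26 ± 0.12) and Thy1 (-0.22 ± 0.11) followed.

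Markers of the other cells that carry these genes were read beside them as the mean log2 value of each list. Thymic epithelium, the source of Dll4, lay between 8.47 and 8.84 in spaceflight, against 9.02 to 9.13 in ground control over 8 of 8 markers. Of these, Foxn1 (-0.63 ± 0.12), Psmb11 (-0.79 ± 0.16) and Krt5 (-0.66 ± 0.17) had groups that did not overlap, as did 4.28% of all genes in this direction, and 0 of the 8 passed (limma adjusted p = 0.134, 0.187 and 0.31 for these 3). The median difference of the list was -0.36 with all arrays, with 8 of 8 means lower, where 68.2% of the brighter genes had a lower mean. Without spaceflight replicates 1 and 3 it was -0.13, with 5 lower and 3 higher, where 52.8% of the brighter genes were lower. Foxn1 was then at -0.64, Psmb11 at -0.89 and Krt5 at -0.40, still without overlap. Prss16, a protease of cortical epithelium, was at 0.17 with the groups apart in the other direction (limma adjusted p = 0.842). With those arrays left out, 1689 of the 19938 genes had groups apart in the lower direction and 1485 in the higher. The part of epithelium in the Dll4 value was not tested. CD4+ CD8+ thymocyte markers, 7 of 8 measured, ran from 10.62 to 10.81 in spaceflight and from 10.80 to 10.90 in ground control. Their median difference was -0.15 and 0 passed, with 6 of 7 means lower, where 68.2% of the brighter genes had a lower mean. Without spaceflight replicates 1 and 3 it was -0.11, with 7 of 7 lower, where 52.8% of the brighter genes were. Endothelium (7 of 7) ran from 6.52 to 7.05 in spaceflight and from 6.78 to 7.68 in ground control, where replicate 3 was the highest and the other 3 lay between 6.78 and 6.87. The median difference of this list was -0.13, and it was 0.04 without ground-control replicate 3 and 0.00 without spaceflight replicate 1. Pericytes and smooth muscle (7 of 7) ran from 6.64 to 7.46 in spaceflight and from 7.34 to 7.87 in ground control. Spaceflight replicate 1, the lowest array for Hes1, was also the lowest here and in endothelium. It was likewise the lowest for B cell (6.56) and mast cell (5.39) markers. Spaceflight replicate 3 was the lowest for thymic epithelium, CD4+ CD8+ thymocytes and regulatory T cells. Ground-control replicate 3 was the lowest for innate lymphoid and NK cells. For Notch3, spaceflight replicate 1 was the highest array, at 7.54. The part of pericytes and smooth muscle in the Hes1 and Notch3 values was not tested.

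Regulatory T cell markers (6 of 6) ran from 6.68 to 6.98 in spaceflight and from 6.73 to 6.85 in ground control. The median difference of the list was -0.11, with 4 of 6 means lower, where 68.2% of the brighter genes had a lower mean. Ctla4, an inhibitory receptor, was at 0.68 ± 0.14 (limma adjusted p = 0.177), while the defining factor Foxp3 was at 0.07, Ikzf2 at -0.20, Tnfrsf18 at -0.20, Il2rb at -0.14 and Tnfrsf4 at -0.09. Mast cell markers (7 of 7) ran from 5.39 to 5.77 in spaceflight and from 5.53 to 5.65 in ground control, with Fcer1a and Ms4a2 at or below the receptor background. B cell markers (5 of 6) ran from 6.56 to 7.28 in spaceflight and from 6.69 to 7.38 in ground control. Innate lymphoid and NK cell markers (5 of 6) ran from 5.31 to 5.58 in spaceflight and from 5.22 to 5.37 in ground control, and Ncr1, Klrb1c, Klrg1 and Eomes were at or below the receptor background.

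How small a change could have been seen is limited by 4 arrays a group and by the spread of each gene. The SE of the 9 differences ran from 0.11 for Bcl11b to 0.30 for Hes1, where the median over all genes was 0.13, and the smallest difference that passed anywhere on the array was 0.88. A change of that size lay outside the 95% interval of each member except Hes1. Smaller changes within the intervals were not detectable with these arrays, and an adjusted p above the threshold does not show that the levels were equal.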

How the data were processed

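Per the submitters' processing notes, the authors used RMA and limma. The deposited values are on the log2 scale, 1 column per array. Versions, genome build and filters are not given in the sources used here. Per the labels' protocols, 6 µg of Trizol-extracted total RNA was made into biotin-labelled cRNA. Values were used as deposited. The lowest unbroken run of 6614 identifiers, without annotation, was left out as presumed controls, and 28943 probe sets were fitted with limma 3.58.1 under R 4.3.3, by lmFit and eBayes, with a two-sided test and no replicate block. Of these, 21789 had 1 gene, giving 19938 genes after symbols were updated through the RefSeq table of GRCm38.p6; 1621 had several genes and were not named. P-values were Benjamini-Hochberg adjusted over genes, with a threshold of 0.05. The permutation test ran over the 70 assignments of 8 arrays. The background mark was the 95th percentile of 1194 receptor genes.

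The members and lists were chosen with earlier results of these data known. Genes were named by a fixed rule: all members, whole lists of up to 5 measured genes, otherwise the 4 of smallest p in each list, and the 3 of most like pattern. Rbpj, Ptcra, Prss16, Foxp3 and Tnfrsf4 were added outside this rule with their values known. Of these, Prss16, Foxp3 and Tnfrsf4 were not among the 79 named genes checked further below. Of the cell type lists only some genes are named. Replicate numbers were not treated as pairs, since the labels state no pairing. Deviations of same-numbered arrays from their group means correlated from -0.30 to 0.24, which cannot show whether pairs existed. No 2 arrays were identical. The procedure was tested on simulated data. The number of arrays limits the precision, and p-values measure the spread between these mice. Alternatives were other centring, repeated normalization, filters, probe set choices, variance models, array weights, a replicate block and arrays left out.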

Additional observations from a re-analysis of the deposited data

Results flagged for a closer look

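A single array stood far from the other 3 of its group (Dixon's test at 95%) in 6 of 158 groups, over 79 named genes in 2 groups each; chance flags about 1 in 20 groups. None of the 9 members was among them. Ground-control replicate 3 was the array in 5 of the 6. It was high for Dll1 at 5.92, against 5.62 to 5.66 in the other controls, and for Jag1 at 7.42, against 6.70 to 6.79. It was also high for the endothelial markers Tek at 7.48, against 6.26 to 6.45, and Emcn at 6.90, against 6.15 to 6.25, and low for Ikzf2, a regulatory T cell marker, at 7.74, against 7.90 to 7.93. In spaceflight, replicate 1 was high for Dll3 at 5.51, against 5.25 to 5.27 in the other 3.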

How the results depend on the processing

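Of the 9 members, 0 passed under each of the 20 alternatives by limma (smallest adjusted p from 0.264 to 0.855). At an unadjusted p under 0.05 the count was 0 in each except without spaceflight replicate 2, where Hes1 and Il2ra were under it. In that setting 3259 of the 19938 genes were under it, against 2005 with all 8 arrays. No listed gene outside the members passed adjustment under these alternatives either. The median difference over the members was 0.0140 without spaceflight replicates 1 and 3, and from -0.18 (without spaceflight replicate 2) to -0.08 (without spaceflight replicate 3) when single arrays were left out. The count over all genes, 10 as reported (2 higher, 8 lower), was 3 with 75th percentile centring (1 higher, 2 lower), 16 among genes brighter than the receptor background, 16 with the mean of a gene's probe sets and 6 without spaceflight replicates 1 and 3. It was from 2 to 9 without single arrays: 2 without ground-control replicate 2, 3 or 4, 3 without spaceflight replicate 4, 4 without ground-control replicate 1, 5 without spaceflight replicate 1 and 6 without spaceflight replicate 2. With the replicate block it was 0 (limma, with 1700 genes under an unadjusted p of 0.05), though the labels do not state that the numbers pair the samples. No scaling moved the median of all genes by over 0.1.

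Of 180 recomputed member differences, 14 changed sign, in 6 of the 9 genes, and none was past the threshold on either side. Differences of the other sign without spaceflight replicates 1 and 3 were 0.0496 for Notch1, -0.0195 for Notch3, 0.0152 for Hes1, 0.0140 for Kit, 0.0234 for Gata3, 0.22 for Cd79a, 0.0908 for Emcn, 0.0767 for Il2rb, 0.13 for Klrb1c, 0.0904 for Maml1, 0.16 for Ms4a1, -0.0185 for Ncr1, -0.0303 for Pax5, 0.0396 for Tagln and 0.12 for Tnfrsf18. With 75th percentile centring they were 0.0523 for Notch1, 0.0539 for Klrb1c and 0.0501 for Notch4, and with repeated quantile normalization 0.0320 for Notch1, -0.0147 for Hhex, -0.0351 for Eomes, -0.0191 for Ncr1 and 0.00273 for Notch4. The mean of a gene's probe sets gave 0.0396 for Fbxw7 and 0.0408 for Rbpj, and the lowest probe set 0.0768 for Elf4, 0.16 for Fbxw7 and 0.17 for Rbpj. Without single arrays the ranges that crossed 0 were -0.33 to 0.0175 for Cd79a, -0.0961 to 0.28 for Cd79b, -0.22 to 0.0357 for Emcn, -0.0134 to 0.12 for Eomes, -0.0849 to 0.18 for Hhex, -0.0755 to 0.0647 for Klrb1c, -0.24 to 0.00199 for Maml1, -0.0123 to 0.14 for Ncr1, -0.15 to 0.0755 for Notch1, -0.17 to 0.0424 for Notch2, -0.0430 to 0.0926 for Notch3, -0.11 to 0.0402 for Notch4, -0.0485 to 0.10 for Pax5 and -0.51 to 0.0349 for Tagln. The cause of these changes was not tested.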
